A study of Mus musculus with 2 samples.

Results

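The glutathione and thioredoxin systems were described here through 10 genes, Gclc, Gclm, Gss, Gsr, Gpx1, Gpx4, Txn1, Txn2, Txnrd1 and Txnrd2, out of 20618 genes with a named probe on the arrays. They were chosen by name, and every non-control probe whose RefSeq accession belongs to one of them was used, which gave 11 probes, 2 of Gsr and 1 of each other gene. The study profiled leukaemia of the B-cell acute lymphoblastic type (B-ALL) in mouse bone marrow, with an age of 8 weeks on the labels. The cells carry SoNar, a fluorescent sensor of the NADH/NAD+ balance. Cells were sorted on the ratio of sensor fluorescence under violet and blue excitation into a SoNar-high population, with more NADH relative to NAD+, and a SoNar-low one. Cy3-labelled RNA from either sort went onto a single Agilent one-colour array, so that 1 SoNar-high array stands against 1 SoNar-low array, and the differences below have no replicate check and no test. N-myc-high and N-myc-low are the names in the sample titles, and the labels give no genotype, leukaemia driver or number of mice.

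Glutathione is a cysteine-containing tripeptide that keeps cells reduced and detoxifies peroxides. Glutamate-cysteine ligase makes its precursor in the rate-limiting step, and this enzyme pairs a catalytic subunit (Gclc) with a modifier subunit (Gclm) that makes it more efficient; glutathione synthetase (Gss) completes the molecule. Glutathione peroxidases spend glutathione on hydrogen peroxide and lipid peroxides, and glutathione reductase (Gsr) regenerates it with NADPH. Thioredoxins reduce protein disulfides, and thioredoxin reductases recharge them, also with NADPH, with one pair in the cytosol (Txn1, Txnrd1) and one in mitochondria (Txn2, Txnrd2). Gpx1, Gpx4, Txnrd1 and Txnrd2 encode selenoproteins. Gclc, Gclm, Gsr, Txn1 and Txnrd1 are textbook targets of the transcription factor NRF2, which is held in check by KEAP1 and acts through antioxidant response elements.

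The promoters of Gclm and Txnrd1 are shown because Gclm was the gene furthest from the others on these arrays and because, of the 8 member genes in the promoter table, these were the 2 with a match to the core letters of the antioxidant response element. Promoter windows ran from 250 bases before to 50 bases after a gene's start (RefSeq, GRCm38.p6), and TGACNNNGC was searched on both strands. The Gclm window lies at chr3:122245307-122245606 on the plus strand, and the Txnrd1 window, the match-bearing one of its 3, at chr10:82858956-82859255 on the plus strand. Capitals mark the match, which lies on the opposite strand in each (TGACGGTGC for Gclm, TGACAAAGC for Txnrd1).
Gclm: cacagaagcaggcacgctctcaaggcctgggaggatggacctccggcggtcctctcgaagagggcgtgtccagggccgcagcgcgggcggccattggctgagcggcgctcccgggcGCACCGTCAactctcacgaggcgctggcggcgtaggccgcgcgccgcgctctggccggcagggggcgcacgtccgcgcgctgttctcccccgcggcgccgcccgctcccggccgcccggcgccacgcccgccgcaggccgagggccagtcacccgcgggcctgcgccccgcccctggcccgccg
Txnrd1: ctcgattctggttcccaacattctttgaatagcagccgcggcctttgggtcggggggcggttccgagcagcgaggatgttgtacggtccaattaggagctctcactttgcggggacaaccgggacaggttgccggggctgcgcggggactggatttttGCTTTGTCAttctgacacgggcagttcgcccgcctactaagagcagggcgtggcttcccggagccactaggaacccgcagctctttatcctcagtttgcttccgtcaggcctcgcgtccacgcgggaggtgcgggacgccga
The match begins 134 bases before the start in Gclm and 92 bases before it in Txnrd1, and neither overlaps the AP-1 letters TGAGTCA, which no member window held. The same letters stood in 12.4% of all 32851 promoter windows and in at least 1 window of 14.0% of 27025 genes, so a match in 2 of 8 genes is a description and not a site. The windows of Gss, Gpx1, Gpx4, Txn1, Txn2 and Txnrd2 held no match. G and C made up 79.7% of the Gclm window, and 47.0 to 68.3% of the other 12 member windows.

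Each array held 43020 non-control spots, of which 44.8% passed background by the scanner software's call on the SoNar-high array and 72.9% did on the SoNar-low array. All 11 member probes were well above background on both arrays, none was flagged or saturated, and each was printed as 1 spot, so no member gene was left out. The scanner software's own error estimate of the member signals was at most 10.6% of the signal. Among 196 probes printed as 10 spots and measured on both arrays, a difference between 1 spot of each array had a median SD of 0.15 (log2), and different probes of the same gene had a median SD of 0.32. These spreads cover spots and probes on a slide, not cells, mice or sorts. Of 17 B-lineage markers 14 were measured on both arrays, among them Cd79a and Cd79b, while Igll1, Il7r and Rag1 were not well above background on either. In such bulk RNA, fewer cells of a type and less RNA per cell cannot be told apart.

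The genes of the glutathione and thioredoxin systems lay close together on the 2 arrays, with Gclm as the exception. After each array was scaled to the 75th percentile of its signals, none of the 10 genes reached a 2-fold difference on the SoNar-high array in either direction (0 higher and 0 lower); of all 10521 measured genes, 2.4% were that much higher and 4.39% that much lower. Gclm, 1.89-fold lower, came nearest to that size. The other 9 differences lay between -0.02 and 0.57 (SoNar-high minus SoNar-low, log2), and the median of the 10 was 0.20 beside 0.22 for all measured genes. Against that median gene, 4 members stood higher and 6 lower, and 7 of the 10 fell between the lower and upper quartile of all genes (-0.15 and 0.52).

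**Figure D1:**
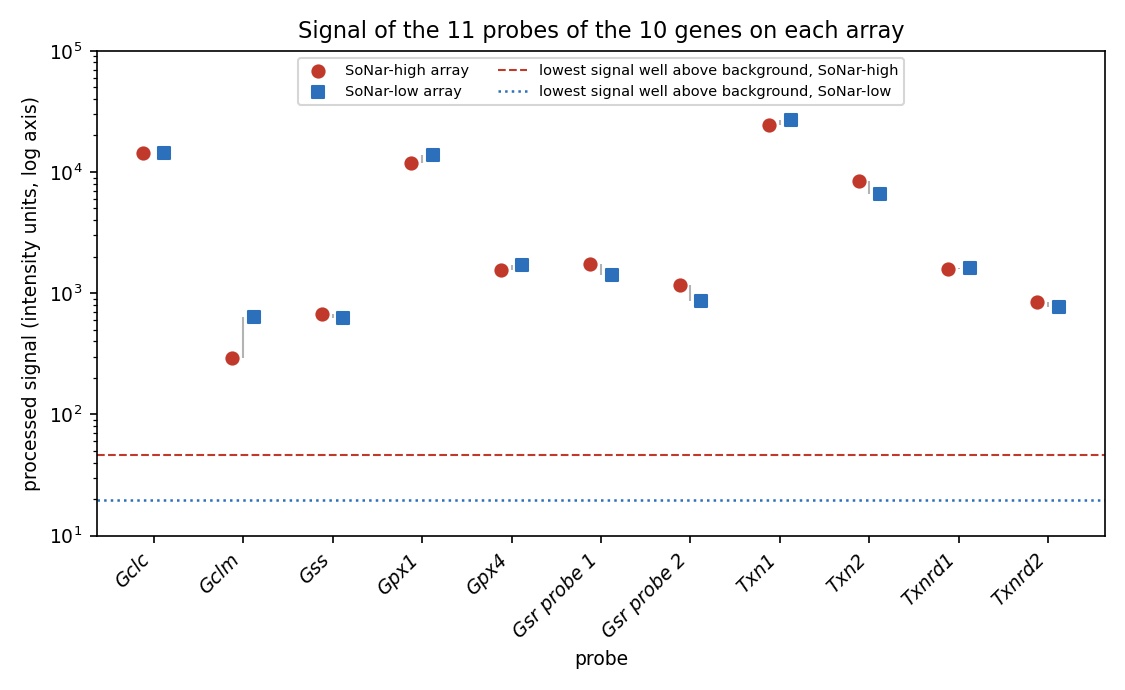
Processed signal (intensity units, log axis) of each member probe on the SoNar-high array (circles) and the SoNar-low array (squares), 1 spot each, with dashed and dotted lines at each array's lowest signal well above background. The Gclm probe shows the widest gap, 293 units on the SoNar-high and 637 units on the SoNar-low array; levels of different probes are not comparable.

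Among the genes of glutathione synthesis, the modifier and the catalytic subunit of glutamate-cysteine ligase stood apart. Gclm had a signal of 293 units on the SoNar-high array, against 637 units on the SoNar-low array. The SoNar-high value is the lower of the pair, and it still lay 6.32 times above that array's lowest signal well above background. Scaled, the difference was -0.92 on the log2 scale, which ranked 543rd from the lowest of 10521 genes, so 5.15% of genes lay lower. Gclc, the catalytic subunit, had 14357 units on the SoNar-high and 14220 units on the SoNar-low array, a scaled difference of 0.22 that lay at the median gene. Genes with a level within 0.5 log2 units of Gclc had a median difference of 0.47 (345 genes), so Gclc stood 0.26 below them. Gss, which adds glycine in the last step, had 678 units on the SoNar-high and 623 units on the SoNar-low array, a scaled difference of 0.32. The difference of Gclc thus exceeded that of Gclm by 1.13 on the log2 scale, and that of Gss exceeded it by 1.24, values that do not depend on the scaling constant of either array. They did vary with other steps of the processing. Over the 11 processings that measured Gclm, the gaps ran from 0.93 to 1.13 for Gclc and from 1.08 to 1.24 for Gss. Both gaps are larger than the median SD of 0.32 between probes of a gene. That SD describes single probes, and a gap between probes varies more, so it is not a like measure. Each gap also rests on 1 probe per gene.

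The glutathione peroxidases differed little between the arrays. Gpx1, the cytosolic enzyme that removes hydrogen peroxide, had 11849 units on the SoNar-high and 13834 units on the SoNar-low array, a scaled difference of -0.02. Gpx4, which reduces lipid peroxides in membranes and protects cells from ferroptosis, had 1553 units on the SoNar-high and 1698 units on the SoNar-low array, a scaled difference of 0.07. Neither scaled difference exceeded the spread between spots, and both lay below the median gene. Genes with a level within 0.5 log2 units of Gpx1 had a median difference of 0.48 (374 genes), and those near Gpx4 one of 0.35 (1430 genes), so Gpx1 stood 0.50 and Gpx4 0.28 below genes of a like level.

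Glutathione reductase had the highest difference of the 10 genes. Its probes read 1751 and 1162 units on the SoNar-high array, against 1423 and 860 units on the SoNar-low array, and the SoNar-high signal was the brighter at each. The scaled differences of these probes were 0.50 and 0.64, with a mean of 0.57, a 1.48-fold difference in the only member measured by more than 1 probe. The gene lay 0.34 above the median gene, and 78.2% of all genes lay lower. Genes of a like level had a median difference of 0.33 (1529 genes), which left Gsr 0.24 above them.

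The mitochondrial thioredoxin gene stood higher than the cytosolic one. Txn2 had 8382 units on the SoNar-high and 6588 units on the SoNar-low array, a scaled difference of 0.55. Genes of a like level had a median difference of 0.40 (621 genes), which left Txn2 0.15 above them. Txn1, whose product reduces peroxiredoxins and ribonucleotide reductase in the cytosol, had 24282 units on the SoNar-high and 26944 units on the SoNar-low array, a scaled difference of 0.05. Genes near its level had a median of 0.35 (177 genes), so Txn1 stood 0.30 below them. The difference of Txn2 exceeded that of Txn1 by 0.50 on the log2 scale, again with 1 probe each. Over the 12 processings this gap ran from 0.33 to 0.51. The median SD of 0.32 between probes of a gene describes single probes and not such a gap. Whether the gap exceeds the spread of probes was not tested.

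The reductases that recharge them were closer to each other. Txnrd2, the mitochondrial enzyme, had 840 units on the SoNar-high and 768 units on the SoNar-low array, a scaled difference of 0.33. Txnrd1, the cytosolic enzyme, had 1583 units on the SoNar-high and 1599 units on the SoNar-low array, a scaled difference of 0.19. The gap between them was 0.14, the lowest value over the 12 processings, in which it ran up to 0.27. The median SD of 0.15 between spots describes a single difference and not such a gap. The other Txnrd gene, Txnrd3, which encodes a thioredoxin-glutathione reductase best known from testis, was not a member and had 2664 units on the SoNar-high and 1443 units on the SoNar-low array, a scaled difference of 1.09.

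**Figure D2:**
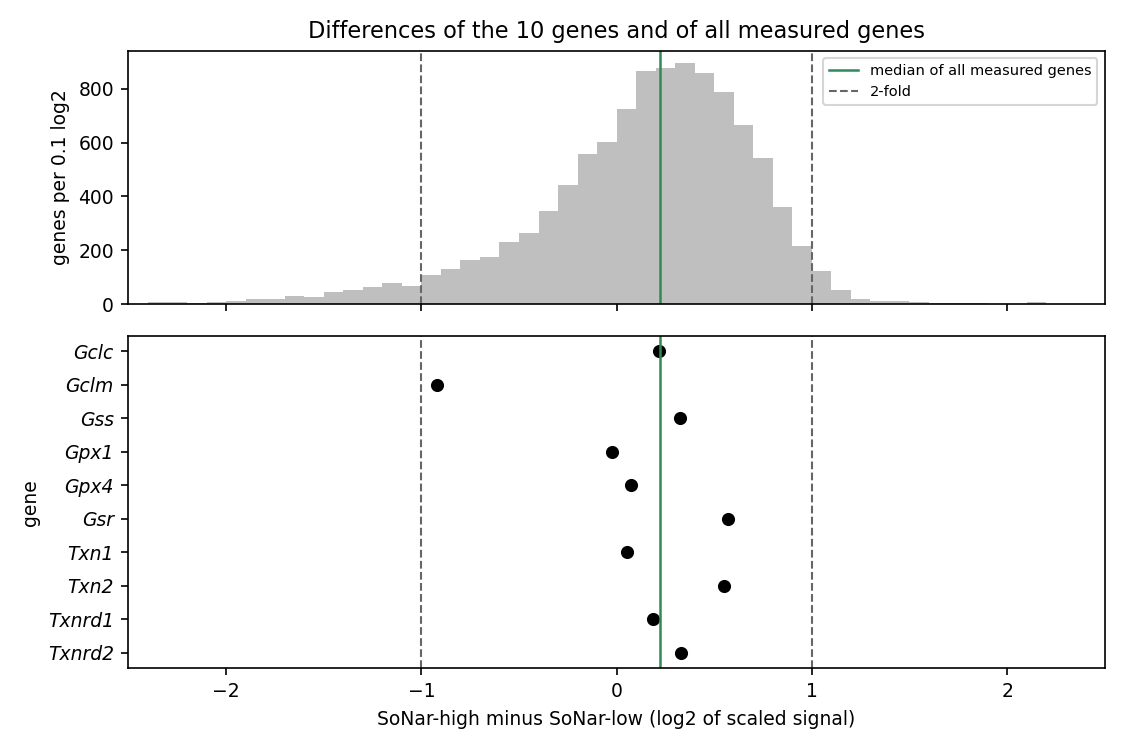
Top, number of genes by SoNar-high minus SoNar-low difference (log2 of scaled signal, bins of 0.1) over the 10521 genes measured on both arrays; the panel's range leaves out the few genes beyond it. Bottom, the 10 member genes on the same axis, with the green line at the median gene (0.22) and dashed lines at 2-fold; Gclm at -0.92 lies apart from the other 9, which run from -0.02 to 0.57.

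How far Gclm passed or missed a 2-fold difference depended on the scaling, while its place as the lowest member did not. Over the reported processing and the alternatives to it that measured Gclm, 11 in all, Gclm was the lowest of the 10 genes each time, with differences from -1.21 to -0.35. It was at least 2-fold lower in 3 of the 11, namely with the 75th percentile taken over the probes detected on both arrays (-1.21), with centring on the median gene (-1.14) and with loess on the level (-1.06). Relative to the median gene of the same processing it lay between -1.19 and -0.96. The stricter filter on dim probes left Gclm out. Gsr and Txn2 lay above the median gene in all 12 processings and Gpx1 below it in all 12, and Gsr was the highest member in 11. The sign of Gclc, Gpx1, Gpx4, Txn1 and Txnrd1 changed with the scaling, so no direction is given for them.

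**Figure D3:**
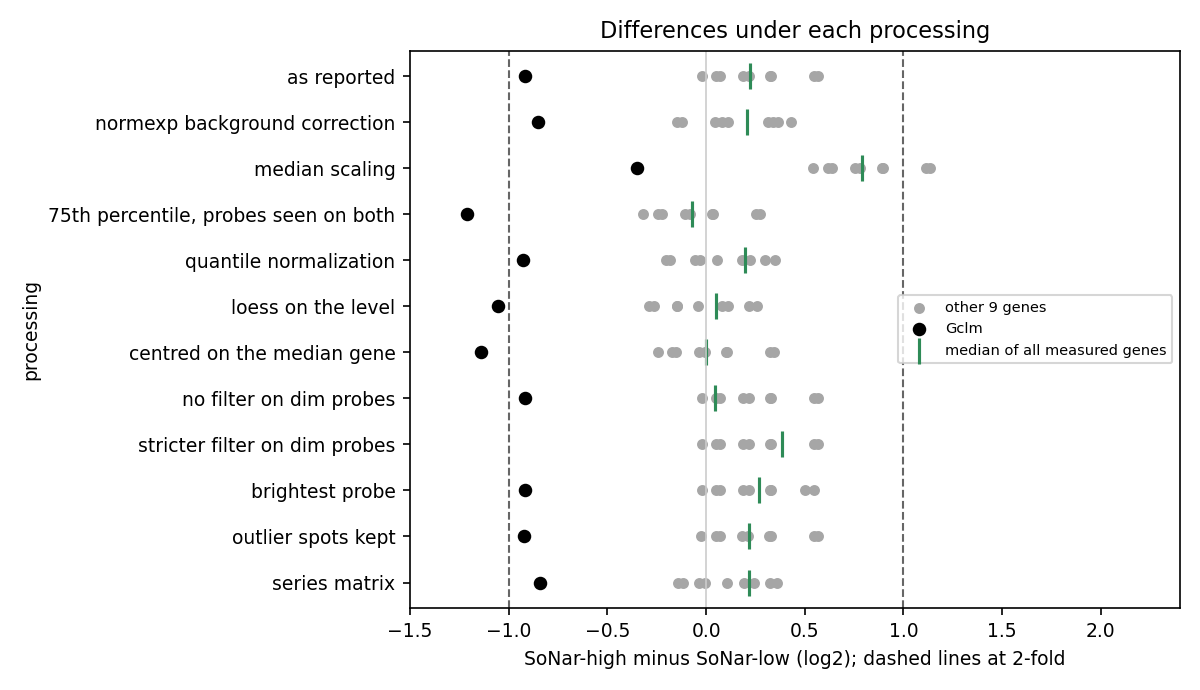
SoNar-high minus SoNar-low difference (log2) of the member genes under the reported processing and 11 alternatives, 1 line each, with Gclm in black, the other 9 genes in grey, the median of all measured genes in green and dashed lines at 2-fold. Gclm is absent from the line of the stricter filter and lies left of the other 9 genes on the 11 other lines.

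Genes around these systems were compared through 9 lists, some of which share genes. Of 155 listed genes other than the members, 110 were measured on both arrays, with a median of 0.25, 58 above and 52 below the median gene. In these lists 3 genes (2.73%) were past 2-fold on the higher side of the SoNar-high array and 2 (1.82%) on its lower side, shares near or under the 2.4% and 4.39% of all genes. The higher genes were Prdx4, Txnrd3 and Ggct, past 2-fold in 11, 6 and 6 of the 12 processings in that order. The lower ones were Hmox1, past 2-fold in 7 of the 11 that measured it and below 0 in each, and Txndc9, past 2-fold in 8 of 12 but at 0.41 by its highest value. Of the 155 listed genes, 2 of which had no probe, another 27 passed background solely on the SoNar-low array and 0 solely on the SoNar-high array. Over all 20618 genes with a probe these counts were 5453 and 11. A gene seen on 1 array only gets a lower bound here, its scaled signal divided by what the other array could have shown, either that array's detection floor (its lowest spot signal well above background, 46.4 units on the SoNar-high array) or the probe's own signal there, whichever is higher. Where several probes of a gene passed background on that array, the highest bound was kept. By this bound 4 of the 27 genes were at least 2-fold lower in the SoNar-high cells, as were 326 (5.98%) of all 5453 such genes.

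The remaining glutathione and thioredoxin genes had a median of 0.37 over 22 measured of 35 listed, with 16 above and 6 below the median gene. Txnrd3 was highest, followed by Ggct, which breaks down gamma-glutamyl amino acids in glutathione turnover (1416 units on the SoNar-high and 799 units on the SoNar-low array, a scaled difference of 1.03). Lowest were Txndc9 and Glo1, which uses glutathione to detoxify methylglyoxal (-0.40). The mean of Txndc9, -1.12, came from 3 probes at -3.50, -0.28 and 0.41, so its probes did not share a direction. Txnip, which binds and inhibits thioredoxin, was at 0.39 with probes at 0.65 and 0.12. Gpx3, the secreted peroxidase, had 12.9 units on the SoNar-high array, not well above background, against 99.9 units on the SoNar-low array, at least 1.87-fold lower. Srxn1, which repairs overoxidised peroxiredoxins, had its brighter signal on the SoNar-high array, 50.7 units, but was not well above background there. It passed background solely on the SoNar-low array, at 26.0 units, and no fold was taken.

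The genes that turn glutathione to detoxification showed no common direction. Glutathione S-transferases had a median of 0.20 over 13 measured genes, with 5 above and 8 below the median gene and none past 2-fold. The omega-class genes Gsto1 (0.81) and Gsto2 (0.76) were highest, and Gstt3 (-0.46) and Gstm1 (-0.43, with probes at -0.90 and 0.05) were lowest. Of all 5453 genes detected solely on the SoNar-low array, 326 (5.98%) had bounds past 2-fold. Among the 8 transferase genes detected solely there, 3 did, Gstm6 (at least 2.76-fold lower in the SoNar-high cells), Gstm2 (at least 2.69-fold) and Gstm7 (at least 2.04-fold). These mu-class genes are close paralogs, and which of them a probe reads is uncertain. Each also had at least 1 probe that was dim on both arrays.

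Supply of the building blocks and of NADPH lay near the median gene. Genes of cysteine and glutamate supply had a median of 0.24 over 8 of 12 genes, 4 above and 4 below the median gene, from the cystine exporter gene of lysosomes, Ctns (0.79), and the transporter heavy chain gene Slc3a2 (0.32) to Cdo1 (-0.14) and Cbs (-0.56), which opens the route from homocysteine to cysteine. The signal of Slc7a11, the cystine importer, passed background on neither array. NADPH supply had a median of 0.32 over 12 measured genes, 9 above and 3 below the median gene, from Mthfd2l (0.81) and Taldo1 (0.66) to G6pdx, the entry enzyme of the pentose phosphate pathway (0.17), and Aldh1l1 (-0.19).

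NRF2, KEAP1 and other genes of their pathway had a median of 0.20 over 20 measured of 26 genes, 10 above and 10 below the median gene. Nfe2l2, which encodes NRF2, had 636 units on the SoNar-high and 466 units on the SoNar-low array, a scaled difference of 0.65, and Keap1 was at 0.24. Abcc4 (0.97) and Taldo1 (0.66) were highest, and Hmox1 (-1.11) and Cbr1 (-0.59) lowest. Hmox1, which encodes the haem-degrading oxygenase 1, read 140 and 72.4 units on the SoNar-high array, against 393 and 160 units on the SoNar-low array, and both its probes were lower on the SoNar-high array (-1.29 and -0.94). The canonical target Nqo1 passed background on neither array. Antioxidant response element letters stood in the promoter windows of 9 of the 23 genes of this list in the promoter table (39.1%), against 14.0% of all genes; the list was made of pathway genes, many of them known targets.

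Genes of selenoprotein synthesis, on which Gpx1, Gpx4, Txnrd1 and Txnrd2 depend, had the lowest median of the 9 lists, at -0.13 over 9 measured of 10 genes, with 2 above and 7 below the median gene and none past 2-fold. The selenocysteine elongation factor gene Eefsec (-0.88) and the kinase gene Pstk (-0.36) were lowest, and Secisbp2 (0.44) and Trnau1ap (0.44) highest. Other selenoprotein genes had a median of 0.28 over 12 of 15, from Selenok (0.97) and Selenow (0.84) to the plasma selenium carrier gene Selenop (-0.80) and Selenon (-0.87).

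The list labelled substrates of the thioredoxins took in all peroxiredoxin genes, whichever system reduces their products. It had a median of 0.26 over 11 of 12 genes, 6 above and 5 below the median gene. Prdx4, the peroxiredoxin of the endoplasmic reticulum, had 5605 units on the SoNar-high and 2559 units on the SoNar-low array, a scaled difference of 1.33 by 1 probe. It was followed by Msra (0.65), while Prdx2 (-0.49) and the ribonucleotide reductase gene Rrm1 (-0.08) were lowest. Prdx1, the main cytosolic substrate of Txn1, was at 0.26 with 2 probes on opposite sides of 0 (-0.26 and 0.78). Rrm2b was detected solely on the SoNar-low array and was at least 2.22-fold lower in the SoNar-high cells by 1 probe. Its other probe read 9.39 units on the SoNar-high and 20.9 units on the SoNar-low array, near the detection floor of the latter (19.7 units). Ferroptosis genes, around the lipid peroxidation that Gpx4 prevents, had a median of 0.26 over 11 of 15, from Ncoa4 (0.91) and Gch1 (0.90) to Tfrc (-0.04) and Steap3 (-0.53), and the iron exporter gene Slc40a1 was at least 1.76-fold lower.

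**Figure D4:**
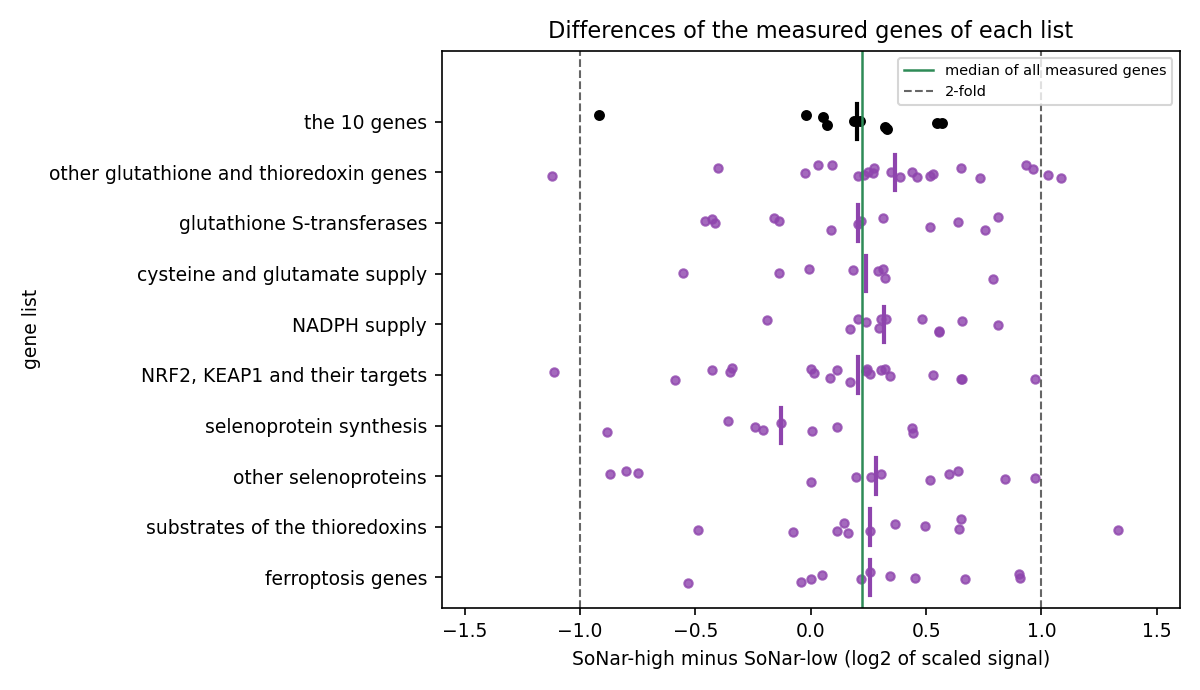
SoNar-high minus SoNar-low difference (log2 of scaled signal) of each measured gene, 1 point each, for the 10 member genes and the 9 lists; short bars mark each list's median, the green line the median gene (0.22) and dashed lines 2-fold. The medians lie between -0.13 (selenoprotein synthesis) and 0.37 (other glutathione and thioredoxin genes), and vertical scatter within a row has no meaning.

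Markers of cells other than B-ALL blasts also differed between the arrays, beside the lower values of Gclm, Hmox1, Gpx3, Slc40a1, Gstm2, Gstm6 and Gstm7. Another mu-class gene, Gstm5, was at 0.22. Of 4 measured monocyte and macrophage markers 2 were past 2-fold on the lower side, and 6 more, C1qa, C1qc and Lyz2 among them, were detected solely on the SoNar-low array; the scaled signals of the list summed to 1.79 for SoNar-high and 2.96 for SoNar-low. Of 6 measured lung markers 2 were at least 2-fold lower, and 7 others, among them Sftpa1, Sftpb and Sftpc, were likewise detected solely there (sums of 42.7 for SoNar-high and 40.6 for SoNar-low). Napsa and Lamp3 carried those lung sums, which without both genes were 3.69 for SoNar-high and 7.84 for SoNar-low. Neutrophil markers were below 0 in 10 of 12 (sums of 113 for SoNar-high and 142 for SoNar-low). Erythroid markers were below 0 in 5 of 6, with 6 others, including Alas2, Klf1 and Slc4a1, detected solely on the SoNar-low array (sums of 71.3 for SoNar-high and 49.7 for SoNar-low, and of 15.6 for SoNar-high and 19.6 for SoNar-low without Hemgn, which carried them). The bounds of Alas2 (0.86) and Klf1 (0.85) did not reach 1, so neither was shown to be lower, and Slc4a1 was at least 1.84-fold lower. T and NK cell markers had 3 of 7 at least 2-fold lower and 1 at least 2-fold higher (sums of 6.71 for SoNar-high and 7.73 for SoNar-low). Without Lck, the brightest of them, the sums were 3.07 for SoNar-high and 5.90 for SoNar-low. Of 11 measured brain markers 5 were at least 2-fold higher and 1 lower (sums of 16.7 for SoNar-high and 14.3 for SoNar-low), while Syt1 was detected solely on the SoNar-high array, at least 6.88-fold higher, and Gfap solely on the SoNar-low array, at least 2.10-fold lower in the SoNar-high cells by 1 probe. Another Gfap probe read 37.6 units on the SoNar-high and 44.3 units on the SoNar-low array. Of the markers detected solely on the SoNar-low array, 4 lung markers had bounds past 2-fold. The monocyte and macrophage, neutrophil, erythroid, and T and NK cell lists had 0 such bounds each. Markers of the B lineage had 10 of 14 above 0 and 4 below it. Against the median gene 6 stood higher and 8 lower, with a list median of 0.14. Ikzf3 (-1.33) and Cd22 (-1.10) were past 2-fold on the lower side. On the higher side 0 were, and Ebf1 (0.98) and Ms4a1 (0.88) came nearest. Over all 20618 genes with a probe, 5453 were detected solely on the SoNar-low array and 11 solely on the SoNar-high array. Among markers with a probe, solely SoNar-low counts were 6 of 12 monocyte and macrophage, 7 of 13 lung and 6 of 14 erythroid. The counts were 3 of 15 neutrophil, 3 of 13 T and NK cell, 1 of 18 brain and 0 of 17 B-lineage. Of the 10521 measured genes, 66.9% were above 0, 4.39% were past 2-fold on the lower side and 2.4% on the higher side. Whether any marker list differs from these shares was not tested. The part of cells other than blasts in the values above was not tested.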

How the data were processed

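The authors deposited 1-colour intensity values per spot made with Agilent Feature Extraction, for which the file headers give version 11.0.1.1 and the submitters' processing notes 9.1. The processed signal is net of background and carries no scaling across arrays, per the file headers. The authors' series matrix holds deposited log2 values for both arrays, with a median of 5.90 in each column; higher values in it stand for brighter probes, its scaling and centring are not given in the sources used here, and it was an alternative. Flagged spots were left out, log2 values of repeated spots were averaged (39085 probes), and each array's 75th percentile (409 units on the SoNar-high and 470 units on the SoNar-low array) was subtracted, a shift of 0.20. Accessions were matched without versions to a RefSeq gene table of GRCm38.p6 (27115 probes, 20618 genes); that build differs from the array design's, so it served for names only. A gene's difference averages those of its probes that passed background on the 2 arrays. The scans were separate sessions, 1 per array, so effects of scan and of population cannot be told apart. The members and lists were chosen with earlier results of these data known. Named genes were all members, the 2 highest and 2 lowest of each list, those past 2-fold, and Nfe2l2, Keap1, Txnip, Slc7a11, Srxn1 and Prdx1; markers and a few pathway genes outside this rule were named after their values were seen. No test was made, as each population had 1 array. The gene step was tested on simulated data. Python 3.11.15, numpy 2.4.6, pandas 2.3.3, statsmodels 0.14.6, matplotlib 3.10.9, R 4.3.3 and limma 3.58.1 were used.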

Additional observations from a re-analysis of the deposited data

How the results depend on the processing

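With 1 array per population no value has an error between samples, and dim genes on the SoNar-high array are limited by its higher background. The reported values were 0 members at least 2-fold higher and 0 lower, a member median of 0.20, 253 genes higher and 462 lower, and 3 and 2 genes of the pathway lists. Median scaling gave 2 members higher (Gsr and Txn2), a member median of 0.77, 3380 genes higher and 140 lower, and 36 and 0 list genes. The 75th percentile of probes seen on both arrays gave 1 member lower, a median of -0.095, and 61 and 853 genes. Loess gave 1 member lower, a median of -0.093 and 118 genes higher. Centring on the median gene gave 1 member lower, a median of -0.022, 70 and 742 genes, and 1 and 5 list genes. Quantile normalization gave a member median of 0.012, and the series matrix one of 0.051, with 430 genes higher and 1 list gene lower. Normexp gave 72 and 241 genes, no filter on dim probes 1885 and 2542, and the stricter filter 141 and 111 with 0 list genes lower. At 1.5-fold there were 0 members higher and 1 lower, 2145 and 1070 genes, and 23 and 7 list genes; at 3-fold 31 and 133 genes, and 0 and 0 list genes. Higher genes made up 35.4% of those past 2-fold as reported, 96.0% with median scaling, 6.67% with the 75th percentile of probes seen on both arrays, 8.62% with centring, 18.2% with loess and 47.0% with quantile normalization. The scalings move all genes by the same amount, or by an amount set by level, and the cause of the other changes was not tested. Member differences moved by less than the spread between spots (0.15) in 58 of 109 values under the alternatives. Every value with no filter on dim probes, the stricter filter, the brightest probe or outlier spots kept was among the 58. Those steps could hardly move members that were unflagged, well above background and, except Gsr, read by 1 probe. The count is therefore not a measure of stability. Matching by a gene name column was not run, since the scanner files used here hold none. No paired analysis was possible because each population had 1 array.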
